A study of Rattus norvegicus with 24 samples.

Results

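The eicosanoid synthesis genes are 10 genes chosen by symbol: Ptgs1, Ptgs2, Ptges, Ptgis, Hpgd, Alox5, Alox5ap, Alox15, Lta4h and Ltc4s. All 10 were found among the 30043 genes of a read count table of rat lung RNA, and 7 were abundant enough to enter the test, which covered 13322 genes. Ptgs2, Ptges and Ltc4s were below the count filter.

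Eicosanoids are signalling lipids made from arachidonic acid that phospholipases release from membranes. Cyclooxygenases (Ptgs1, expressed constitutively in many tissues, and Ptgs2, which inflammation induces) turn it into prostaglandin H2, from which terminal synthases make prostaglandin E2 (Ptges) or prostacyclin (Ptgis), and Hpgd, 15-hydroxyprostaglandin dehydrogenase, starts the breakdown of prostaglandins, for which the lung is a main site. 5-Lipoxygenase (Alox5), presented with its substrate by the membrane protein Alox5ap, makes leukotriene A4, which Lta4h converts to the neutrophil attractant leukotriene B4 and Ltc4s to the cysteinyl leukotrienes. Alox15 is the 12/15-lipoxygenase.

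The RNA came from a piece of lung of 24 male Fischer 344 rats bought at 3 months of age and kept for 29 weeks of whole-body inhalation, with 6 rats per group. The combined group breathed cigarette smoke and crystalline silica (Min-U-Sil5, a quartz dust that injures the lung). The silica group breathed the dust alone, the smoke group smoke alone, and the air group clean air throughout. Silica was given at 15 mg/m3 for 6 hours a day on 5 days of week 3. Smoke was given for 3 hours on Tuesdays and Fridays, at 45 mg/m3 in week 1 in the combined group and 40 mg/m3 in the smoke group, then at 80 mg/m3, with week 3 free of smoke and a restart in week 4.

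Total counts ran from 21629 in library smoke 2 to 4687805 in air 6 (median 2335358), with 280484 in silica 4 and at least 1084815 in the others. Haemoglobin genes made up 56.0% of the reads counted in smoke 2, against 0.249% to 1.54% elsewhere, and a gene with 3 counts would stand there at 159 CPM (counts-per-million, on totals scaled by the TMM method). In that library 9 members were at 0 and Alox15 alone had reads. Smoke ranges are therefore given without smoke 2, which stayed in the tests. Silica 1, smoke 1 and smoke 2 were named in earlier work on these data as standing apart, and results that turn on them are given with and without them. The comparisons with air share the same 6 air libraries.

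In lungs of the combined group, 3 of the 7 tested members differed from air (edgeR quasi-likelihood test, Benjamini-Hochberg adjusted p under 0.05, which is meant by called here). Alox5ap rose to 1.59 times and Lta4h to 1.39 times the air level, and the prostaglandin-degrading Hpgd fell to 0.649 times the air level. Of all genes tested 22.4% were called in this comparison, and beside that share 3 of 7 is not read as particular to the members. The median log2 fold change of the 7 was -0.09, beside -0.01 over all genes. No member was called in silica against air, where 3.17% of all genes were called. At an unadjusted p under 0.05 there were 3 of the 7 members and 18.2% of all genes. None was called in smoke against air, where 0.15% of all genes were called, and at an unadjusted p under 0.05 there were 0 members and 8.29% of all genes.

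**Figure D1:**
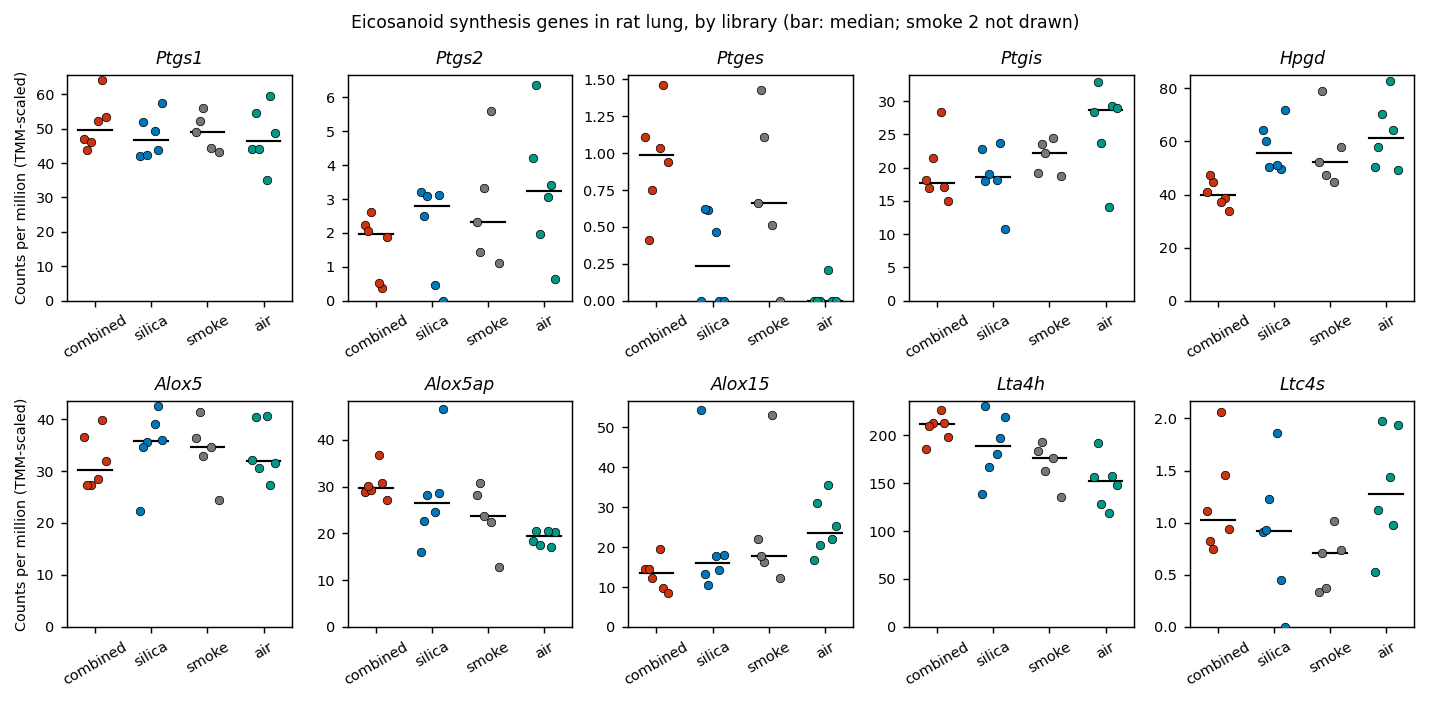
Counts-per-million levels of the 10 members in each library, by group (combined, silica, smoke, air), with a bar at the group median; smoke 2 is not drawn. Every combined point lies below every air point for Hpgd and above every air point for Alox5ap, while Ptgs2, Ptges and Ltc4s lie near the detection limit.

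The promoters of Hpgd, which fell, of Lta4h, which rose, and of Ptges, which had a read in each combined library, are printed from the RefSeq promoter table of assembly GRCr8, which held 7 of the 10 members (Ptgis, Alox5ap and Alox15 were not matched). Each line gives the 250 bases before the annotated start on the gene's own strand. They lie at chr16:39034832-39035081 (minus strand), chr7:29856621-29856870 (plus strand) and chr3:34586988-34587237 (minus strand).
Hpgd: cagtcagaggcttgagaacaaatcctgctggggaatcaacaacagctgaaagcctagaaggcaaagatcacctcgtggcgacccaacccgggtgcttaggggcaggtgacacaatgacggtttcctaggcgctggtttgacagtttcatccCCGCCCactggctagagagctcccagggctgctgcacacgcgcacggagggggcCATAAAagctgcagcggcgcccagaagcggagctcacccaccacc
Lta4h: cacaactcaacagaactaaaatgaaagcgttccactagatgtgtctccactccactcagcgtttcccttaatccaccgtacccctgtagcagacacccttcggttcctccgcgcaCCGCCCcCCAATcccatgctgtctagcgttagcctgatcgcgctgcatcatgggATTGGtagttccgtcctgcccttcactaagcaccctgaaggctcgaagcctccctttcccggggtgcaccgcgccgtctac
Ptges: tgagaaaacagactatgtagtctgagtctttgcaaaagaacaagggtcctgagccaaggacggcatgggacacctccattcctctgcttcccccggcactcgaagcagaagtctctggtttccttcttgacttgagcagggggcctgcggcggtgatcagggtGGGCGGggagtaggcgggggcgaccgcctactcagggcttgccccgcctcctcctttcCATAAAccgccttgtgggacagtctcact
Capitals mark matches, on either strand, to the GC box GGGCGG, the CCAAT box and the TATA-like CATAAA. No matches overlapped.
The search also covered the TATA box TATAAA, the AP-1 motif TGANTCA, the PU.1 core GAGGAAG and the cyclic AMP response core TGACGT, none of which occurs in these windows. The Hpgd promoter holds a GC box starting 99 bases before the start and CATAAA 45 bases before it. That of Ptges has the same pair in the same order, 87 and 29 bases before its start. The Lta4h promoter has a GC box 135 bases before the start, CCAAT boxes 128 and 81 bases before it, and no TATA-like match. Of the 33469 promoters of that table, searched from 250 bases before to 50 after the start, 33.1% hold GGGCGG, 37.5% CCAAT, 12.7% CATAAA, 14.2% TATAAA, 7.33% TGANTCA, 12.4% GAGGAAG and 7.94% TGACGT. The Ptgs1 promoter holds GAGGAAG 102 bases before the start, that of Ptgs2 a GC box at 238 and a CCAAT box at 133 bases before it, that of Alox5 a GC box at 61 bases and that of Ltc4s a CCAAT box at 33 bases. These are matches of letters, not known binding sites.

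Ptgs1, the constitutive cyclooxygenase, was not called in any comparison. Its levels had a range of 43.8 to 64.3 CPM in the combined group (median 49.6), 42.0 to 57.4 in the silica group (46.6), 43.1 to 55.9 in the smoke group (48.9) and 35.0 to 59.6 in the air group (46.4), so all groups overlapped and no neighbours in the order of levels differed beyond their spread. The log2 fold change of the combined group against air was 0.11 (95% interval -0.13 to 0.36; edgeR adjusted p 0.538).

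Ptgs2, the inducible cyclooxygenase, was near the detection limit, with 22 counts in all combined libraries together, 28 in silica, 32 in smoke and 55 in air. Per library it had 0.365 to 2.63 CPM in the combined group, 0 to 3.20 in the silica group, 1.11 to 5.6 in the smoke group and 0.646 to 6.36 in the air group. The groups overlapped and no group was above air in its median. The ratio of pooled levels, combined over air, was 0.503, with an exact interval of 0.292 to 0.839 that covers counting error only. In a fit of 22605 genes without the count filter its log2 fold change was -0.95 ± 0.47 (standard error), with an adjusted p of 0.205 (edgeR).

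Ptges, the inducible prostaglandin E2 synthase, had 13 counts in the combined libraries together and 1 in the air libraries. The 6 combined libraries held 3, 4, 2, 1, 1 and 2 counts, the silica libraries 0, 0, 1, 0, 2 and 1, the smoke libraries 2, 0, 3, 0, 2 and 1, and the air libraries 0, 0, 0, 0, 0 and 1. Each combined library had a count, and at 0.413 to 1.46 CPM all were above the highest air library, air 6, at 0.205 CPM. Combined 4, combined 5 and air 6 each had 1 count, so their order rests on their total counts (1084815, 2456499 and 4687805). Of the genes that passed the filter, Ptges not among them, 11.3% had combined and air groups that did not overlap. The silica and smoke groups each had libraries at 0 for Ptges. The pooled level was 0.946 CPM in the combined group and 0.0578 CPM in the air group, a ratio of 16.4 with an exact counting interval of 2.46 to 695. With so few reads Ptges was below the count filter and outside the main test. In the fit of 22605 genes without that filter, combined against air gave 3.20 ± 0.76 on the log2 scale (edgeR adjusted p 0.00295). Of all genes in that fit 2803 were called. Smoke against air gave 2.76 ± 0.82 (adjusted p 0.283) and silica against air 1.83 ± 0.90 (adjusted p 0.400). All of these values rest on 1 air count.

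Ptgis, the prostacyclin synthase of vessel walls, was highest in air lungs by its median. Its levels had a range of 15.0 to 28.4 CPM in the combined group (median 17.6), 10.8 to 23.7 in the silica group (18.6), 18.8 to 24.5 in the smoke group (22.2) and 14.1 to 32.9 in the air group (28.7). Air 6, at 14.1 CPM, lay below every other air library and below every combined library, and the other 5 air libraries had 23.7 to 32.9 CPM. The log2 fold change was -0.39 ± 0.17 in combined against air (edgeR adjusted p 0.100) and -0.37 ± 0.18 in silica against air (adjusted p 0.264), so neither was called with all libraries. Without air 6 both passed, at -0.54 (adjusted p 0.00502) and -0.52 (adjusted p 0.0494), and the first also passed without combined 6 at -0.51 (adjusted p 0.0358). Both were called by limma voom with quality weights, at -0.53 (adjusted p 0.00217) and -0.46 (adjusted p 0.0392). That was the only 1 of 6 other processing settings to change either call. Air 6 also stood apart in the fibroblast list (5776 CPM summed over the list, against a group median of 1294).

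Hpgd, the enzyme that starts prostaglandin breakdown, was the member with the smallest p in combined against air. Its level had a range of 33.8 to 47.5 CPM in the combined group (median 39.9), 49.7 to 71.8 in the silica group (55.6), 44.8 to 79.2 in the smoke group (52.2) and 49.1 to 82.8 in the air group (61.2). All 6 combined libraries were below all 6 air libraries and below all 6 silica libraries, whereas the silica, smoke and air ranges overlapped one another. Of the genes tested 11.3% had groups that did not overlap in combined against air, among them 2 of the 7 tested members, Hpgd and Alox5ap, and 1.31% had groups that did not overlap in combined against silica, among them Hpgd. The log2 fold change was -0.62 ± 0.14 (edgeR adjusted p 0.00124), and it stayed between -0.69 and -0.51, called each time, with any 1 library left out.

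Against the groups with a single exposure, Hpgd was also lower in the combined group. In combined against smoke it was the only member called, where 12.9% of all genes were called, at -0.43 ± 0.15 on the log2 scale and an edgeR adjusted p of 0.0488. That call was lost in 17 of 24 fits with 1 library left out, with the highest adjusted p, 0.174, without smoke 5 (79.2 CPM, the highest smoke library). DESeq2 (-0.46, adjusted p 0.106) and the edgeR fit without the count filter (-0.43, adjusted p 0.0514) also lost it. In combined against silica no member was called, where 0.248% of all genes were called, and Hpgd had a log2 fold change of -0.46 ± 0.14 with an adjusted p of 0.166 and an unadjusted p of 0.00342. The test of whether the effect of both exposures differed from the sum of each on the log2 scale called no member (0% of all genes, with 977 of them at an unadjusted p under 0.05, 1 called by DESeq2 and 9 by limma voom), and no member had an unadjusted p under 0.05. For Hpgd that interaction was -0.26, with a 95% interval of -0.67 to 0.15.

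**Figure D2:**
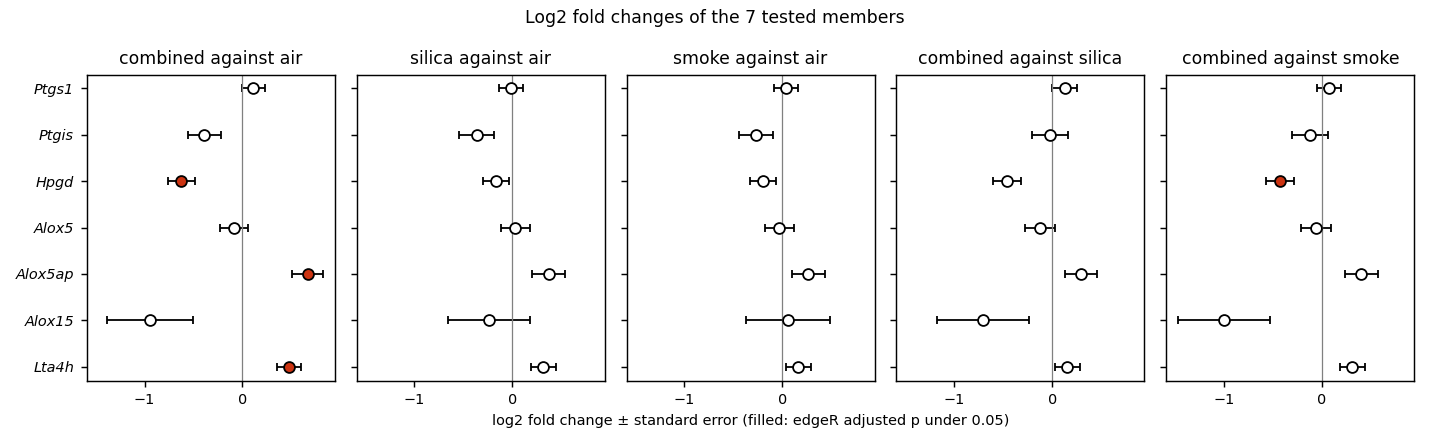
Log2 fold changes with standard errors of the 7 tested members in the 5 comparisons of groups; filled points had an edgeR adjusted p under 0.05. Filled points are Hpgd, Alox5ap and Lta4h in combined against air, and Hpgd in combined against smoke; the widest errors are those of Alox15.

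Alox5, the 5-lipoxygenase itself, was not called in any comparison. It had 27.3 to 39.8 CPM in the combined group (median 30.2), 22.4 to 42.5 in the silica group (35.8), 24.3 to 41.4 in the smoke group (34.7) and 27.4 to 40.6 in the air group (31.9), and all groups overlapped. Its log2 fold change in combined against air was -0.09 (95% interval -0.39 to 0.21).

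Alox5ap, which presents arachidonic acid to Alox5, was the member with the largest rise among those called. It had 27.2 to 36.7 CPM in the combined group (median 29.7), 16.0 to 46.6 in the silica group (26.5), 12.9 to 30.7 in the smoke group (23.7) and 17.1 to 20.6 in the air group (19.4). All combined libraries were above all air libraries, and the air libraries were close together, while the silica and smoke groups spread from below the lowest air library to above the highest. The highest silica value, 46.6 CPM, came from silica 4, where it rested on 13 counts. The log2 fold change in combined against air was 0.67 ± 0.16 (edgeR adjusted p 0.00282) and remained called with any 1 library left out, between 0.61 and 0.70. It was 0.37 ± 0.17 in silica against air (adjusted p 0.229), 0.27 ± 0.17 in smoke against air (adjusted p 0.745), 0.30 ± 0.17 in combined against silica (adjusted p 0.457) and 0.40 ± 0.17 in combined against smoke (adjusted p 0.111). Without silica 1, smoke 1 and smoke 2 the last of these was called, at 0.48 (adjusted p 0.0415).

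Lta4h, which makes leukotriene B4, had the highest read level of the 10 members, in counts not divided by transcript length. It had 186 to 227 CPM in the combined group (median 211), 139 to 230 in the silica group (189), 135 to 193 in the smoke group (176) and 118 to 192 in the air group (152), so the group medians were in the order combined, silica, smoke, air. Air 5, at 192 CPM, lay within the combined range, and the other air libraries lay below it. The log2 fold change in combined against air was 0.47 ± 0.12 (edgeR adjusted p 0.00531) and remained called with any 1 library left out, between 0.41 and 0.57. Silica against air gave 0.32 ± 0.12 (adjusted p 0.155), which passed without silica 1, the lowest silica library at 139 CPM, with 0.40 (adjusted p 0.0329). Smoke against air gave 0.17 ± 0.13 (adjusted p 0.802) and combined against smoke 0.31 ± 0.13 (adjusted p 0.108), of which the second passed without silica 1, smoke 1 and smoke 2 (0.31, adjusted p 0.0494). Long noncoding genes overlap Lta4h in the RefSeq annotation, and their reads could be mixed where strand was not used.

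Ltc4s, the synthase of cysteinyl leukotrienes, had 16 counts in the combined libraries together, 12 in silica, 7 in smoke and 25 in air. Its levels had a range of 0.750 to 2.07 CPM in the combined group, 0 to 1.86 in the silica group, 0.331 to 1.02 in the smoke group and 0.526 to 1.98 in the air group, with overlap between all groups. The pooled ratio of combined over air was 0.806, with a counting interval of 0.402 to 1.57, and that of smoke over air was 0.414, with an interval of 0.151 to 0.984. In the fit without the count filter smoke against air gave -1.14 ± 0.51 on the log2 scale (edgeR adjusted p 0.629). Ltc4s overlaps Mgat4b in the RefSeq annotation, and whether reads were assigned by strand is not given in these sources.

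Alox15, the 12/15-lipoxygenase, had the largest standard errors of the tested members. It had 8.45 to 19.6 CPM in the combined group (median 13.4), 10.5 to 54.4 in the silica group (16.0), 12.2 to 53.0 in the smoke group (17.8) and 16.8 to 35.7 in the air group (23.6). Combined 6, at 19.6 CPM, was the only combined library within the air range, and the other 5 lay below the lowest air library. The log2 fold change in combined against air was -0.94 ± 0.44 (edgeR adjusted p 0.123). It was called at -0.94 without smoke 2 (adjusted p 0.0475), at -0.96 without silica 1, smoke 1 and smoke 2 (adjusted p 0.00953), and at -0.94 in a fit of the combined and air libraries alone (adjusted p 0.00256). It was also called by limma voom with quality weights, at -0.85 (adjusted p 0.0285). It was not called by DESeq2 (-0.94, adjusted p 0.504), with RLE scaling (adjusted p 0.117) or with no filter (adjusted p 0.103). In combined against smoke it was -1.0 ± 0.47 (edgeR adjusted p 0.162), called at -0.87 without silica 1, smoke 1 and smoke 2 (adjusted p 0.0462) and at -3.22 by DESeq2 (adjusted p 0.00213). Smoke 2 enters that DESeq2 fold. The smoke group's mean of Alox15 was 161 CPM with it and 24.3 CPM without it, where the combined mean was 13.2 CPM. The edgeR value without smoke 2 was -0.83 and not called (adjusted p 0.137). Silica against air gave -0.24 ± 0.42 (edgeR adjusted p 0.836), and -0.85 without silica 1 (adjusted p 0.223).

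The 3 libraries with the most Alox15 were also the 3 with the most Alas2, the enzyme of red blood cell precursors that starts haem synthesis. Smoke 2 had 847 CPM of Alox15 on 16 counts and 11970 CPM of Alas2. Silica 1 had 54.4 CPM of Alox15 and 586 CPM of Alas2, and smoke 6 had 53.0 and 441 CPM, where the remaining libraries had at most 35.7 CPM of Alox15 and 227 CPM of Alas2. Across the 24 libraries Spearman's rho was 0.767 with Alas2 and 0.756 with Slc4a1, the red cell anion exchanger, and 0.735 and 0.722 over the 23 libraries without smoke 2. These points share library depth and scaling, and the genes were picked after the high libraries had been seen, so the values are a description. Haemoglobin beta (Hbb), present in mature red cells too, had 0.505 and 0.438. The eosinophil markers Siglec8 and Ccr3 had -0.285 and -0.198 over 24 libraries, and the granule genes Prg2 and Epx stood at 0 to 0.914 and 0 to 0.488 CPM. In combined against air none of the 6 erythroid genes was called, and their summed level was 2538 to 5794 CPM in the combined group and 3298 to 6152 CPM in the air group. In combined against smoke 3 of the 6 were lower, the haemoglobin genes Hbb, Hba1 and Hba2, where 742 of 13322 genes were lower. The erythroid sum reached 629400 CPM in smoke 2, against 3223 to 15360 CPM in the other smoke libraries. The part of these genes' cells in the Alox15 differences was not tested.

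**Figure D3:**
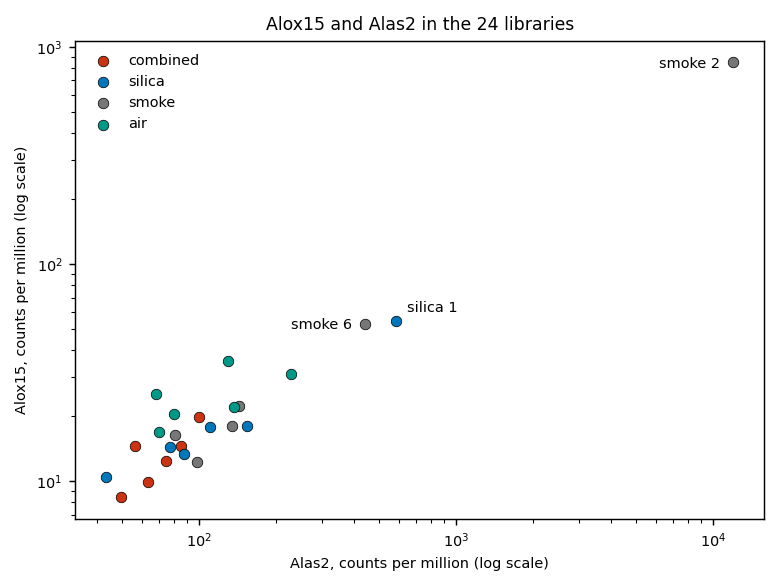
Alox15 against Alas2 in counts-per-million units on log scales, 1 point per library, coloured by group. Smoke 2 stands alone at the upper right, silica 1 and smoke 6 lie between it and the other 21 libraries.

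The list of other prostanoid synthesis genes also held phospholipases and other lipid enzymes. Of its 22 genes 15 were tested and 3 were called in combined against air, all higher. That share is close to the 22.4% of all genes, and of the 3 only Tbxas1 is a prostanoid synthase. Pla2g7, the plasma form of platelet-activating factor acetylhydrolase, had 23.7 to 37.7 CPM in the combined group and 8.94 to 16.8 CPM in the air group, a log2 change of 1.29 ± 0.21 (edgeR adjusted p 6.62e-05). Tbxas1, thromboxane synthase, had 36.6 to 51.7 CPM in the combined group and 15.8 to 32.2 CPM in the air group, at 0.79 ± 0.15 (adjusted p 0.000365). Acsl4, which attaches coenzyme A to arachidonic acid, had 339 to 390 CPM in the combined group and 182 to 283 CPM in the air group, at 0.65 ± 0.15 (adjusted p 0.00273). None of the 3 overlapped between these groups, as was so for 11.3% of all genes tested. The median log2 fold change of the 15 was 0.00. The cytosolic phospholipase Pla2g4a, which releases arachidonic acid, had 0.33 ± 0.14 (adjusted p 0.0874), and the constitutive prostaglandin E synthases Ptges2 and Ptges3 had 0.00 ± 0.18 and 0.08 ± 0.13.

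In combined against air 22.4% of all genes were called. Of the other lipoxygenase and leukotriene genes 9 of 14 were tested and 1 was called. It was Mgst2, a microsomal glutathione transferase that can make leukotriene C4, with 19.7 to 28.9 CPM in the combined group and 11.1 to 22.9 CPM in the air group, a log2 fold change of 0.62 ± 0.18 and an edgeR adjusted p of 0.0134 (0.0842 by DESeq2). Alox12, the platelet-type 12-lipoxygenase, had 0.58 ± 0.22 (adjusted p 0.0508). Of the transport and breakdown genes 7 of 9 were tested and 1 was called, Slco2a1, the carrier that takes prostaglandins into cells for breakdown by Hpgd. It had 289 to 349 CPM in the combined group and 343 to 490 CPM in the air group, with a log2 fold change of -0.42 ± 0.11 (adjusted p 0.00667). Slco2a1 thus moved in the same direction as Hpgd, and the next enzyme of breakdown, Ptgr1, had -0.14 ± 0.16 (adjusted p 0.573).

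Of the prostanoid receptors 6 of 9 were tested. In combined against air, where 22.4% of all genes were called, 1 rose and 2 fell. Ptger2, a receptor for prostaglandin E2, had 6.00 to 10.6 CPM in the combined group and 2.1 to 5.98 CPM in the air group, with a log2 fold change of 0.94 ± 0.26 and an edgeR adjusted p of 0.00971 (0.0838 by DESeq2). Ptgfr, the receptor for prostaglandin F2 alpha, had 0.939 to 4.38 CPM in the combined group and 5.12 to 9.36 CPM in the air group, at -1.10 ± 0.27 (adjusted p 0.00355). Ptgdr2, the prostaglandin D2 receptor of T helper cells and eosinophils, had 2.48 to 4.88 CPM in the combined group and 4.61 to 10.7 CPM in the air group, at -1.01 ± 0.23 (adjusted p 0.00176). The prostacyclin receptor Ptgir, with 0.03 ± 0.18, and the prostaglandin E2 receptor Ptger4, with -0.03 ± 0.13, were not called.

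Of the leukotriene and lipoxin receptors 4 of 11 were tested and 1, Cmklr1, was called in combined against air. Of all genes 22.4% were called there. Cmklr1, a receptor for chemerin and resolvin E1, had 117 to 146 CPM in the combined group and 168 to 279 CPM in the air group, a log2 change of -0.77 ± 0.12 (edgeR adjusted p 4.7e-05). The cysteinyl leukotriene receptors Cysltr1, with 0.25 ± 0.20, and Cysltr2, with -0.02 ± 0.15, were not called. The leukotriene B4 receptors Ltb4r and Ltb4r2 were below the count filter.

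**Figure D4:**
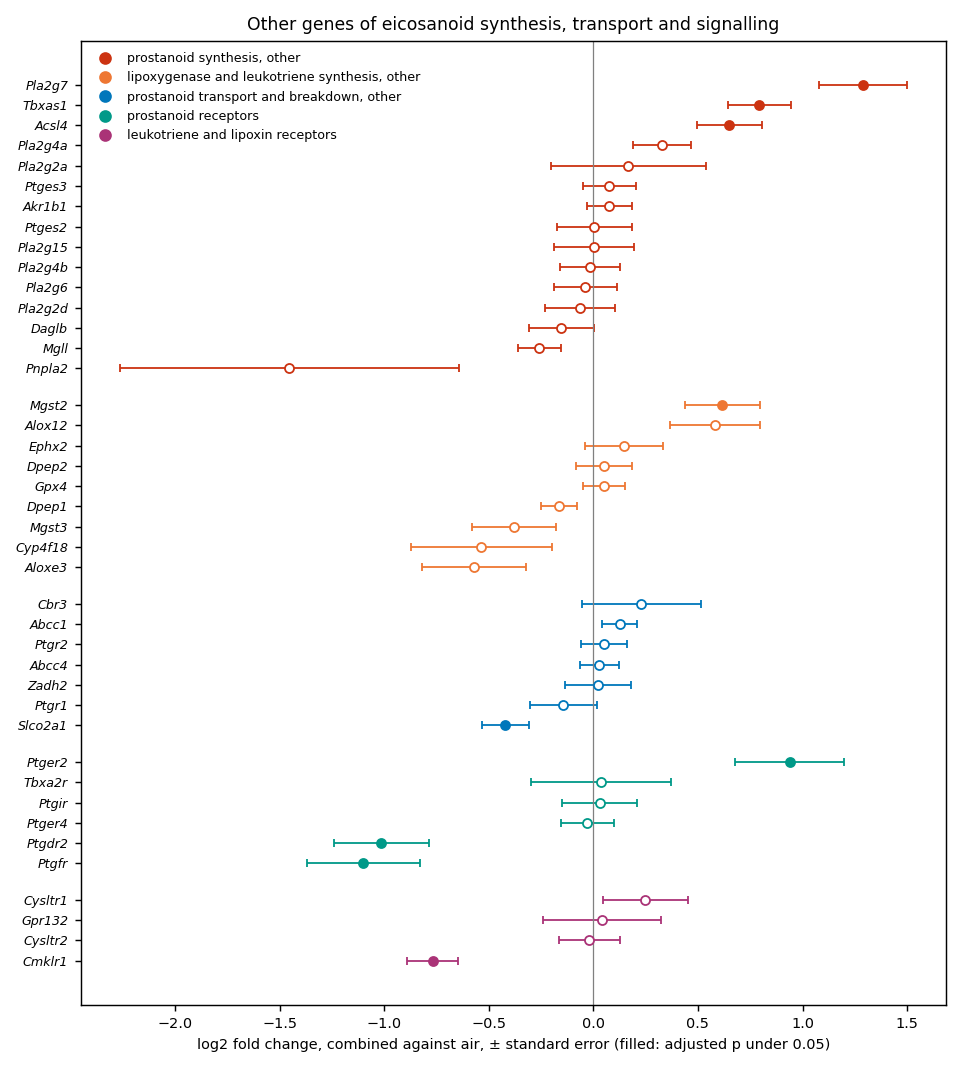
Log2 fold changes of combined against air, with standard errors, for the tested genes of the 5 pathway lists, coloured by list; filled points had an edgeR adjusted p under 0.05. Pla2g7 has the largest called rise at 1.29 and Ptgfr the largest called fall at -1.10, and most genes lie near 0.

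In silica against air 3.17% of all genes were called, and so were 2 pathway genes. They were Acsl4 at 0.59 ± 0.16 (edgeR adjusted p 0.0339) and Cmklr1 at -0.60 ± 0.12 (adjusted p 0.00676). The call of Acsl4 was lost in 9 of 24 fits with 1 library left out, with adjusted p up to 0.130. In smoke against air, combined against silica and the interaction no gene of the 5 lists was called. In combined against smoke, where 12.9% of all genes were called, Pla2g7 (0.99), Tbxas1 (0.57), Acsl4 (0.52) and Ptger2 (0.88) were higher. Ptgfr (-0.87), Slco2a1 (-0.50) and Cmklr1 (-0.47) were lower in the combined group. The adjusted p ran from 0.00444 for Pla2g7 to 0.0467 for Ptgfr (edgeR). Of these genes, Ptgfr lost its call in 15 of 24 fits with 1 library left out, Ptger2 in 7 and Acsl4 in 5. By DESeq2 Tbxas1 had an adjusted p of 0.0682 and Pla2g7 of 0.0766.

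Markers of other cells moved with these results. In bulk RNA, a change in the number of cells of a type and a change in RNA per cell cannot be told apart. Of the 13322 genes tested 1546 were called higher and 1441 lower in combined against air. In combined against air 5 of 7 tested neutrophil markers were higher, and the list's summed level was 418 to 874 CPM in the combined group, 155 to 707 in the silica group, 160 to 551 in the smoke group and 107 to 184 in the air group. S100a9, a calcium-binding protein of neutrophils and monocytes, made up most of it, with a median of 552 CPM in the combined group and 46.7 CPM in the air group, while the granule gene Ngp was at 0.370 to 2.82 CPM in the combined group and 0 to 1.95 CPM in the air group. Of the monocyte-derived macrophage markers 6 of 7 were higher, with a summed level of 2127 to 2763 CPM in the combined group, 650 to 1884 in the silica group, 750 to 1364 in the smoke group and 166 to 1301 in the air group. Of 8 tested macrophage markers 3 were higher and 1, Cd163, was lower, at summed levels of 844 to 977 CPM in the combined group and 563 to 892 CPM in the air group, and Marco was at 0 in all air libraries. These lists moved in the direction of Alox5ap and Lta4h.

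In the direction of Hpgd and Slco2a1, 5 of 7 endothelial markers were lower in combined against air. Of the 13322 genes tested 1441 were lower and 1546 higher there. The endothelial list had a summed level of 2500 to 2868 CPM in the combined group and 2784 to 4321 in the silica group. It had 3387 to 4160 CPM in the smoke group and 3509 to 4316 in the air group. Of 6 alveolar type 1 markers 4 were lower (summed 3037 to 3179 CPM in the combined group and 3701 to 4248 CPM in the air group), as were 4 of 7 smooth muscle and pericyte markers (470 to 566 CPM in the combined group and 584 to 1536 CPM in the air group) and 3 of 5 fibroblast markers (1049 to 1174 CPM in the combined group and 1161 to 5776 CPM in the air group). Of 6 alveolar type 2 markers 2 were higher, with summed levels of 24780 to 28940 CPM in the combined group and 13560 to 22160 CPM in the air group. Of the mast cell markers only Kit was tested, and it was lower, though Kit is not particular to mast cells. The protease genes were too low to test, and their medians lay the other way, at 3.30 CPM of Cpa3 and 1.56 CPM of Mcpt2 in the combined group, against 0.722 and 0.406 CPM in the air group. Mcpt1 was at 0 in every library. The summed levels of all these lists are dominated by their most abundant genes, and the part of these cell types in the members' differences was not tested.

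The genes whose pattern over the 24 libraries was most like each called member were ranked by Spearman's rho of log2 CPM among all tested genes. For Hpgd they were Fam13a (0.876), Casc4 (0.834) and Sgce (0.830). For Alox5ap they were Trem3 (0.911), Alad (0.903) and RGD1307929 (0.901). For Lta4h they were Cd44 (0.921), Acsl4 (0.911) and Smpdl3a (0.911), of which Acsl4 is also on the prostanoid list. Without smoke 2 the same 3 genes headed each ranking, with rho of 0.806 to 0.910. These values are descriptions over libraries that share depth and scaling, and they include the differences between groups.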

How the data were processed

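Lung RNA of 24 rats was measured as whole-number read counts per gene, deposited by the authors without normalization in 1 table with a column per library. The submitters' processing notes name HTSeq 0.11.2, HISAT2 2.1.0, SAMtools 1.8, Trimmomatic 0.35, Cufflinks and bcl2fastq 2.19. For the build, the annotation and the strand setting, no value is given in the sources used here. Ribosomal RNA was removed and a stranded kit was used, per the labels' protocols.

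Of 30069 lines 26 repeats were removed. The tests used edgeR 4.0.16 in R 4.3.3: filterByExpr (minimum count 10), TMM scaling, and 1 quasi-likelihood fit of group means to all 24 libraries (20 residual degrees of freedom), two-sided, Benjamini-Hochberg adjusted over 13322 genes. A standard error is the absolute log2 fold change over the square root of the F statistic. CPM use TMM-scaled totals. Ratios of summed counts have exact 95% intervals for counting error only. Ptgs2, Ptges and Ltc4s were also fitted without the filter. DESeq2 1.42.0, limma 3.58.1 voom with quality weights, RLE scaling, no filter, fewer groups and left-out libraries were tried. The steps were tested on simulated data.

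Groups and separate rats come from the labels. Replicate numbers follow accession order. Libraries of a group differed by a chi-square per degree of freedom of at least 1.80, so none were merged. The members and the 5 pathway and 14 marker lists were chosen with earlier results of these data known. Of 162 listed pathway and marker entries 158 matched by symbol, 3 by gene ID and 1 not. The text names each member, up to 4 called genes per list and comparison with the smallest p, and other list genes chosen after their values were seen, such as abundant markers and uncalled neighbours of a called gene. RefSeq tables of GRCr8 gave promoters and overlaps only.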

Additional observations from a re-analysis of the deposited data

Results flagged for a closer look

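Among 40 combinations of a member and a group, 7 held a library whose gap to its nearest neighbour was large against the group's range (Dixon's rule), where chance flags about 1 in 20. Smoke 2, the library of 21629 counts, gave 4 of them: Ptgs1, Ptgis and Lta4h at 0 CPM, and Alox15 at 847 CPM. Lta4h in the other smoke libraries had 135 to 193 CPM, near or above what 3 counts stand for in smoke 2, 159 CPM.

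Alox15 at 54.4 CPM in silica 1 was flagged among the silica libraries, where the next was 17.9 CPM. Alox5ap at 36.7 CPM in combined 6 was flagged among the combined libraries, and its call against air held without that library, at a log2 fold change of 0.61. Ptges at 0.205 CPM in air 6 was flagged because its 1 count was the only one among the air libraries.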

How the results depend on the processing

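The 3 members called in combined against air (Hpgd, Alox5ap and Lta4h) kept direction and call under DESeq2, RLE scaling, no filter, voom with quality weights, a fit of the 2 groups alone, without silica 1, smoke 1 and smoke 2, and with each library left out. Over all members' log2 fold changes 1169 of 1253 alternative values kept direction and side of the threshold, 19 lost and 19 gained a call and 46 changed sign; of 540 values of called pathway genes 494 kept the call and 46 lost it. For silica against air the 0 members called became 1 under voom (Ptgis), 1 without the 3 libraries (Lta4h), and 0 to 1 with a library left out. For combined against air 3 of the 7 tested members became 5 under voom (Ptgis and Alox15 added), 4 without the 3 libraries (Alox15 added), and 3 to 4 with a library left out. Alox15 was also added with only those groups' libraries. For combined against silica 0 became 1 with only those groups' libraries (Hpgd). For combined against smoke 1 became 0 with no filter, 3 under voom, 2 with only those groups, 4 without the 3 libraries, and 0 to 1 with a library left out. Under DESeq2 the count stayed at 1, with Alox15 called in place of Hpgd. The causes were not tested.

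All changes of sign were in comparisons where that member was not called. Under voom these were Ptgs1 (-0.002103), Alox5 (0.02389) and Alox15 (-0.178) in smoke against air and Lta4h in the interaction (0.006491); under DESeq2 Alox5ap in the interaction (-0.009415); without the 3 libraries Ptgs1 in silica against air (0.009066), Alox15 in smoke against air (-0.08525) and Ptgis in combined against silica (0.0263). With a library left out the ranges were -0.1014 to 0.05676 (Ptgs1) and -0.0438 to 0.1489 (Alox5) in silica against air; -0.04353 to 0.111 (Ptgs1), -0.09638 to 0.07158 (Alox5) and -0.3275 to 0.2782 (Alox15) in smoke against air; -0.1459 to 0.0469 (Ptgis) in combined against silica; -0.009097 to 0.1354 (Ptgs1) and -0.1622 to 0.01053 (Alox5) in combined against smoke; and -0.1381 to 0.1248 (Alox5ap) and -0.092 to 0.07309 (Lta4h) in the interaction. DESeq2 gave Alox15 in smoke against air 2.27, where edgeR gave 0.06.

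Counts over all genes moved more: combined against air 1665 (DESeq2) to 3698 (voom) beside 2987; combined against smoke 823 (DESeq2) to 3368 (voom) beside 1720, and 905 without smoke 3; silica against air 91 (those groups alone) to 1614 (without the 3 libraries) beside 422, with 124 without silica 5 and 1183 without silica 1; smoke against air 5 to 72 beside 20; combined against silica 24 to 116 beside 33, and 16 without silica 1. No paired analysis was possible because replicate numbers were given in accession order. Members at a few counts per library, Ptgs2, Ptges and Ltc4s, are limited by depth.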
